A study of Mus musculus with 3 samples.

Results

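Nephron progenitors rich in immediate early transcripts were examined in single-cell RNA sequencing of the fetal mouse kidney. They were chosen by their counts of 5 genes, Fosb, Egr2, Egr4, Arc and Nr4a1. Cells had to hold at least 1000 detected genes, at most 10% mitochondrial molecules, at least 1 molecule of Six2, the transcription factor that keeps progenitors uncommitted, and none of Wnt4, the signal that starts their conversion to epithelium. Within each library, the 10% of these gated cells with the highest summed count of the 5 genes per unique molecular identifier (UMI) were taken as members. There were 605 members (218, 218 and 169 in libraries 1, 2 and 3) among 6047 gated cells and 7924 cells in all. They were compared with the 2153 gated cells whose sum was 0 (920, 576 and 657), called zero-sum cells below.

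All cells carried a Six2 reporter of green fluorescent protein and came from kidneys at E14.5, with no treated or mutant group in the design. Kidneys of several litters were pooled, sorted for the reporter against dead cells, debris and doublets, and held on ice in 3 tubes that became 3 libraries on 1 chip. The libraries are numbered by the suffix of their cell barcodes, since nothing ties a suffix to a tube's label. Both classes came out of every tube, so the comparison was made within a tube. Its p-values rest on the spread over these 3 tubes, which may be technical, and on dispersions that the fit estimates partly from all genes together. They do not measure a spread over animals or litters.

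Immediate early genes are switched on within minutes of a stimulus without new protein synthesis. They encode transcription factors of the AP-1 (Fos and Jun), EGR and NR4A families, together with factors that shorten the response by decay of messenger RNA or by removing phosphate from the kinase ERK. Growth factors acting through ERK and serum response factor, calcium and cyclic AMP acting through CREB, and mechanical stress or tissue dissociation are known triggers. In the kidney the progenitors receive FGF, BMP and Wnt signals that use some of these routes.

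The start regions of the rule genes are printed because the sites through which such signals are known to act lie there. Each is the 250 bases before a RefSeq start in GRCm38.p6, 5′ to 3′ on the gene's strand, from windows of 300 bases whose last 50 are not shown. Capitals mark TGACG on either strand (CGTCA on the other), the core letters of the cyclic AMP element bound by CREB, and the CArG box, the serum response element's core. The windows are chr7:19310046-19310295 on the minus strand for Fosb, chr10:67537619-67537868 on the plus strand for Egr2, chr6:85513590-85513839 on the minus strand for Egr4 and chr15:101266596-101266845 on the plus strand for Nr4a1.
Fosb: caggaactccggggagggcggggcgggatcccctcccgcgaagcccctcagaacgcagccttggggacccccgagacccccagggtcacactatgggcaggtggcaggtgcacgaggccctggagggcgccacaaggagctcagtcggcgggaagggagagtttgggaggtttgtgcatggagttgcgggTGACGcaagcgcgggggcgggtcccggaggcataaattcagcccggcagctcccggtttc
Egr2: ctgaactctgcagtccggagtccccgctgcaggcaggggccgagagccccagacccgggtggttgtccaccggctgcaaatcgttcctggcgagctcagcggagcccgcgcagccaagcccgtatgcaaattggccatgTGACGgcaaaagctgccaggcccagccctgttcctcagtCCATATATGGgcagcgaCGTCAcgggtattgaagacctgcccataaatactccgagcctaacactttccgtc
Egr4: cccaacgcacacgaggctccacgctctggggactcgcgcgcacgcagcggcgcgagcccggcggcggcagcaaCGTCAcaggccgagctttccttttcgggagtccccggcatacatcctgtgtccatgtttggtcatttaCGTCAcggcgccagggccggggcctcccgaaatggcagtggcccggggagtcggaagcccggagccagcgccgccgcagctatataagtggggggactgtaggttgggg
Nr4a1: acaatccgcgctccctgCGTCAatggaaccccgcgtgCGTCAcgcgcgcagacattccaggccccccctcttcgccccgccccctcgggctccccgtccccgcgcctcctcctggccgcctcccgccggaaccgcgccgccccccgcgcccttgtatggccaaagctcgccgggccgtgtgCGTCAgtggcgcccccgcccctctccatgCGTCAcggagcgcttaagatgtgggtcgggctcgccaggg
TGACG stood once in the Fosb window, 60 bases before the start, and at 177 and 109 bases in the Egr4 window. The Nr4a1 window held it 4 times, at 233, 213, 69 and 40 bases. The Egr2 window held a CArG box at 72 bases between TGACG matches at 111 and 55 bases. Egr2 had 5 windows in the table, of which 4 held a CArG box and 3, overlapping each other, held both motifs; the first of these is shown, chosen for holding both, and the other 2 windows held no TGACG. Over all windows of these 4 genes, 6 of 8 held TGACG. Of all 32851 windows, 17.8% held TGACG, 1.47% a CArG box, 0.170% both, and 1.55% the full palindrome TGACGTCA, which none of the 4 held. A match describes letters only. Arc has no entry in the table of windows.

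The libraries differed before any class was drawn. The rule genes together stood at 96.3, 279.8 and 123 CPM (counts scaled to one shared total for every sum) over all gated cells of libraries 1, 2 and 3, and zero-sum cells were 42.1%, 26.5% and 38.9% of the gate. Ribosomal genes took a median of 26.4%, 14.6% and 22.8% of a zero-sum cell's UMIs. The summed members held 3359451, 2441800 and 2638757 UMIs, and the summed zero-sum cells 14985405, 7251495 and 10605165. Libraries shared 10 (1 and 2), 7 (1 and 3) and 5 (2 and 3) barcodes, and 1 member's barcode occurred in another library. Doublets were treated by the sort alone, and leaving out the 6% of cells with the highest Scrublet scores is among the alternatives.

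The cut between members and other cells fell on a slope without a gap. Library 1's lowest member had 2.72 rule-gene UMIs per 10000 and its highest non-member 2.71. In library 2 these values were 7.79 and 7.79, and in library 3 they were 3.41 and 3.39. The median member had 6, 13 and 8 molecules of the 5 genes, and the fullest 27, 49 and 30. Because each library had its own cut, a member of library 1 carried fewer of these transcripts than a member of library 2. With library 2's cut applied throughout, 16 cells of library 1 (0.733%) and 38 of library 3 (2.25%) would have passed, against 218 (10.0%) in library 2.

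Egr4, a zinc finger factor of the EGR family, made up the largest share of the score. The levels of the rule genes describe the choice of members and carry no test. Egr4 stood at 148, 816 and 297 CPM in members, against 18.2, 106 and 34.8 over the gate, and it gave 32.8%, 61.2% and 48.0% of the members' rule-gene UMIs. Egr2, its relative, stood at 122, 199 and 116 CPM in members. Fosb, a partner of Jun in AP-1, stood at 112, 166 and 91.7 CPM. Library 2 was highest for each of the 5 genes.

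The nuclear receptor Nr4a1 stood at 46.4, 77.0 and 67.8 CPM in members. Arc, known in neurons as a synaptic effector and not a transcription factor, was the scarcest at 23.2, 76.6 and 45.9 CPM, and was found in 21.1%, 36.2% and 27.8% of members. The plot of rule genes by library shows that Egr4 both spans the widest range and differs most between libraries.

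**Figure D1:**
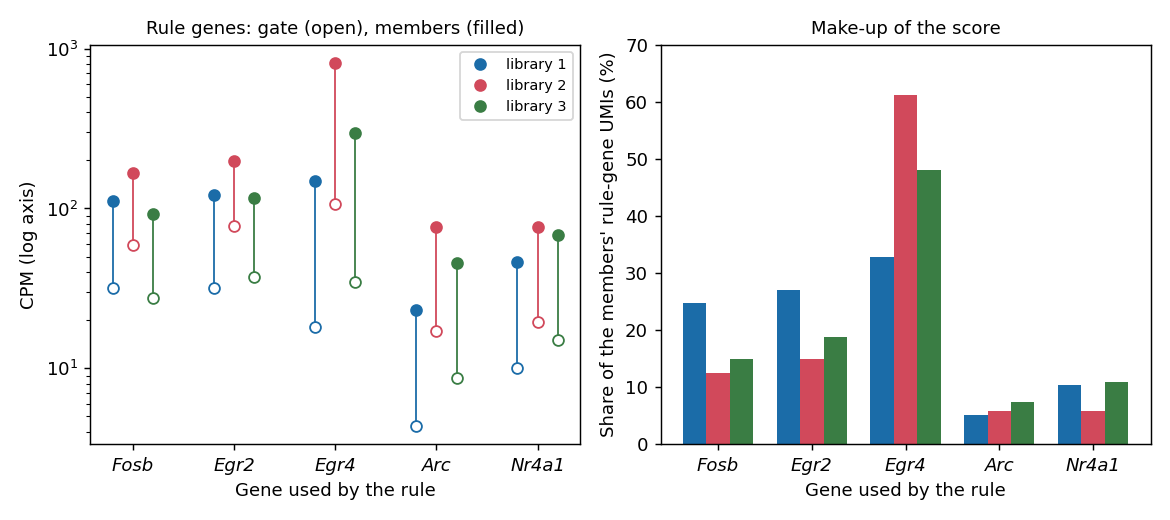
Left, CPM (log axis) of the 5 genes that chose the members, in all gated cells (open) and in members (filled) of each library. Right, share of the members' rule-gene UMIs given by each gene, with Egr4 at 32.8%, 61.2% and 48.0%.

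Most members held molecules of more than 1 rule gene, although Egr4 weighed most. All 5 genes were found in 27 members, 4 in 137, 3 in 214, 2 in 175 and 1 alone in 52. Egr4 was the only rule gene in 27 of those 52, and it was the highest or tied for highest in 340 of the 605 members, against 142 for Egr2, 101 for Fosb, 45 for Nr4a1 and 35 for Arc. Egr4 was also the most uneven of the 5 over gated cells. It was found in 240, 592 and 238 cells of libraries 1, 2 and 3, at a mean of 2.85, 5.13 and 4.21 molecules in those cells and up to 22, 34 and 26. Its variance over gated cells was 5.51, 9.19 and 7.79 times its mean, whereas the ratio for Fosb was 1.91, 1.91 and 1.80.

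Each rule gene was also higher in cells chosen by the other 4. For this the score was rebuilt without the gene and the fit repeated over all genes. Members were chosen with earlier results of these data known, so the p-values of these 5 fits are not independent support for the set. With the other 4 genes choosing, Egr4 was at 7.72, 26.5 and 12.5 CPM in zero-sum cells and 68.0, 374 and 122 in the chosen cells. These groups did not overlap. The log2 difference was 3.52 ± 0.09 (SE, n = 3 libraries; edgeR's quasi-likelihood test, Benjamini-Hochberg adjusted p = 1.71e-25), where 4.21% of genes tested were higher. Arc went from 1.69, 5.03 and 3.24 to 13.7, 42.7 and 28.9 CPM, a log2 difference of 3.11 ± 0.17 (SE; edgeR adjusted p = 2.4e-26), where 4.56% of genes were higher.

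Nr4a1 rose by 2.67 ± 0.14 in log2 when it was left out of the score (SE; edgeR adjusted p = 3.63e-25), with 3.87% of genes tested called higher. Fosb rose by 1.94 ± 0.09 (SE; edgeR adjusted p = 1.7e-16), with 3.47% called higher. Egr2 rose by 1.78 ± 0.08 (SE; edgeR adjusted p = 2.41e-109), with 4.23% called higher. All 5 genes were higher in 3 of 3 libraries. The same held cell by cell as a description: Nr4a1 was found in 26.3%, 25.8% and 29.8% of gated cells with Egr4 and in 10.5%, 12.3% and 13.5% of those without.

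The members kept the levels of nephron progenitor genes. Six2, used by the gate and not tested, stood at 148, 213 and 174 CPM in members and 147, 202 and 155 in zero-sum cells. Of 17 other progenitor regulators tested, 1 rose and none fell, where 5.15% of all genes rose and 4.18% fell. The median log2 difference was 0.024. Wt1, a zinc finger factor needed for the survival of this mesenchyme, was the one that rose, by 0.25 ± 0.04 (edgeR adjusted p = 1.79e-06). Cited1, a marker of the least committed progenitors, was at 155, 216 and 174 CPM in members and 155, 192 and 197 in zero-sum cells, and these overlapped. Its log2 difference was 0.02 ± 0.05 (edgeR adjusted p = 0.855), but with members as the top 5% it passed as higher (0.22; edgeR adjusted p = 0.0318). Eya1, the phosphatase partner of Six2, differed by -0.06 ± 0.04 (edgeR adjusted p = 0.427), and Osr1, an early marker of the kidney field, by 0.03 ± 0.05 (edgeR adjusted p = 0.728).

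Markers of other cell types were scarce in both classes for some lists and not for others. The mural and muscle list of 6 genes summed to 299, 426 and 344 CPM in members and 347, 442 and 346 in zero-sum cells, nearly all of it Des. That gene, of the intermediate filament desmin, was at 289.9, 392 and 334 CPM in members and 340.1, 434 and 340.4 in zero-sum cells (log2 difference -0.11 ± 0.04; edgeR adjusted p = 0.0634), and with zero-sum cells paired to members by total UMIs it passed as lower (-0.17; edgeR adjusted p = 0.019). The 12 stromal genes summed to 146, 234 and 121 CPM in members and 142, 223 and 134 in zero-sum cells. The summed level of 6 endothelial markers was 2.38, 1.23 and 1.89 CPM in members and 1.0, 0.827 and 1.32 in zero-sum cells, with Cdh5 at 0 in all members. The 6 immune markers summed to 2.38, 0.410 and 1.14 CPM in members and 8.54, 1.93 and 17.8 in zero-sum cells, with Ptprc at 0 in all members. Of the ureteric list (8 genes) and the early nephron list (8 genes), 1 gene each was high enough to test and neither passed. The early nephron marker Lhx1 was at 1.19, 0.410 and 0.758 CPM in members. Among 7 stromal genes tested Dcn alone rose and none fell, where 5.15% of all genes rose and 4.18% fell. Its log2 difference was 0.60 ± 0.20 (edgeR adjusted p = 0.0369), and without library 2 it stood at 0.22 (edgeR adjusted p = 0.737).

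Members had fewer UMIs and a slightly higher mitochondrial share than zero-sum cells in every library. UMIs enter the rule as its denominator, so their level is a description: members had a median of 14944.5, 10794.5 and 14377 UMIs, below the 15869, 12107.5 and 15455 of zero-sum cells in every library. The median mitochondrial share was 3.42%, 3.56% and 3.33% in members and 3.22%, 3.37% and 3.23% in zero-sum cells. Cells among the 6% with the highest doublet scores made up 4.13%, 4.13% and 4.73% of members. In zero-sum cells they were 2.61%, 3.99% and 4.41%. Barcodes with 10 or more A or T bases made up 17.9%, 11.5% and 12.4% of members. In zero-sum cells they were 12.4%, 12.7% and 13.9%. With 3 libraries the design cannot give an exact two-sided permutation p below 0.25, so these values carry no test.

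Across all 11111 genes tested, 572 rose (5.15%) and 464 fell (4.18%) in members, with a median log2 difference of 0.0095 over all genes. The counts of both classes were summed per library and tested with edgeR's quasi-likelihood test with the library as a block, at an adjusted p of 0.05. The rises were larger than the falls: 52 genes rose by 2-fold or more and 9 fell by as much. DESeq2 with the same block called 98 higher and 103 lower, and its counts for the gene lists below were smaller in most lists. It gave an adjusted p to 12 of the 30 largest changes, and all 12 passed. Genes to which it gave none count as not called, here and in the lists. Of the genes that rose, 549 were higher in 3 of 3 libraries, and of those that fell, 461 were lower in 3 of 3. The 3 member values and the 3 zero-sum values did not overlap for 778 of the 11111 genes tested. Statements below that classes did not overlap are to be read beside that count.

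Cyr61, a secreted matrix protein and textbook target of serum response factor and YAP, rose most among genes above 10 CPM. It was at 26.6, 62.6 and 43.5 CPM in zero-sum cells and 229.8, 611 and 304 CPM in members, so every member value lay far above every zero-sum value. The log2 difference was 3.10 ± 0.06 (SE, n = 3 libraries; edgeR adjusted p = 1.41e-51), an 8.59-fold rise. Timp3, an inhibitor of matrix metalloproteinases, followed at 2.74 ± 0.15 (edgeR adjusted p = 7.25e-25). Its members were at 20.5, 88.9 and 22.7 CPM and its zero-sum cells at 3.94, 10.2 and 4.62, with library 2 far above the others.

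**Figure D2:**
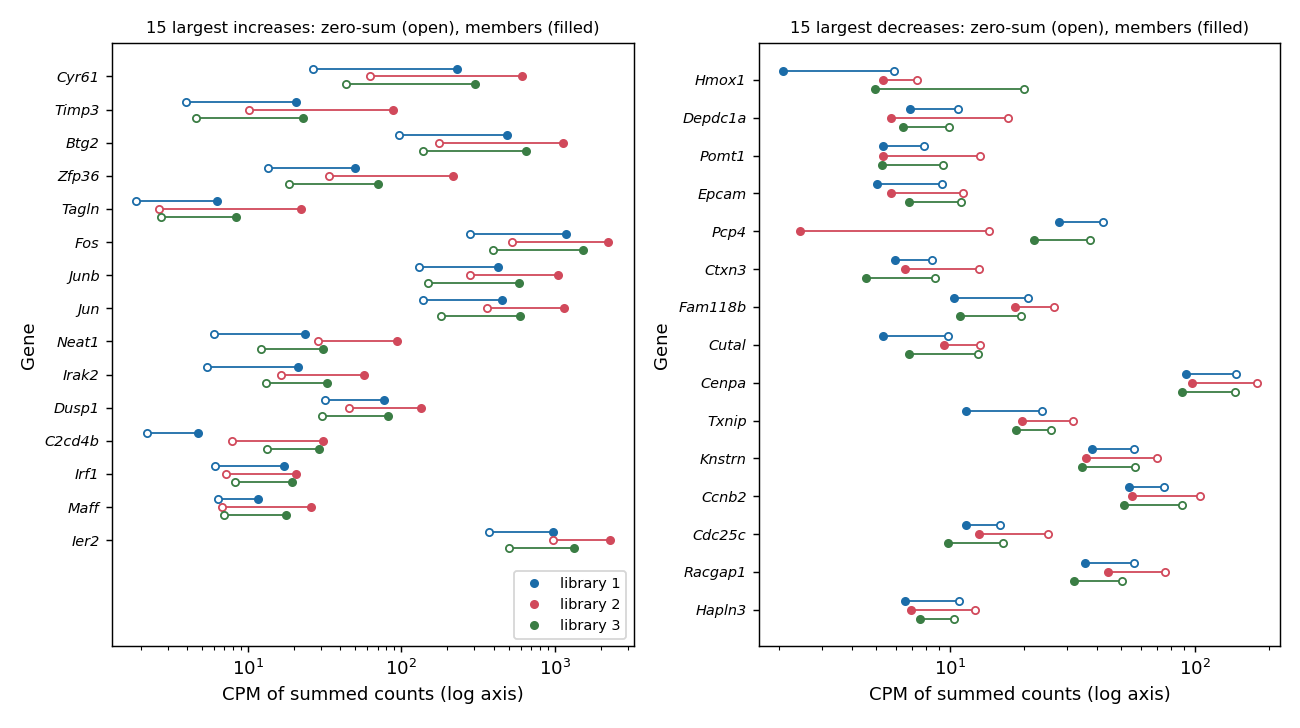
CPM of summed counts (log axis) in zero-sum cells (open) and members (filled) for the 15 largest increases and 15 largest decreases, 1 line per library. Every increase is seen in all 3 libraries, from Cyr61 (8.59-fold) to Ier2 (2.56-fold), and the decreases, Hmox1 apart, are smaller.

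Of 8 AP-1 genes outside the rule that could be tested, 6 rose and none fell, where 5.15% of all genes rose, with a median log2 difference of 1.56 beside 0.0095 over all genes. Fos, whose protein pairs with Jun, was at 281, 525 and 396 CPM in zero-sum cells and 1189, 2217 and 1538 CPM in members. The classes did not overlap, and the log2 difference was 2.06 ± 0.03 (SE; edgeR adjusted p = 2.7e-56). Junb rose by 1.89 ± 0.04 and Jun by 1.72 ± 0.04 (edgeR adjusted p = 4.69e-48 for each). Jund, the Jun protein known for steady expression, rose less, by 0.73 ± 0.03 (edgeR adjusted p = 1.18e-27). The small Maf factor Maff rose by 1.39 ± 0.18 and the Fos relative Fosl2 by 1.76 ± 0.38 from a level near 1 CPM. Atf3 was too low to test, at 0.400, 0.414 and 0.849 CPM in zero-sum cells and 1.19, 2.87 and 1.14 in members.

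Fos was not limited to members. It was found in 76.3%, 79.7% and 79.8% of zero-sum cells, and in 64.1%, 74.7% and 69.1% once each cell was thinned to 8000 UMIs. In members it was found in 99.1%, 99.1% and 100.0% of cells unthinned and 97.0%, 99.0% and 98.8% thinned. Thinning left out 59, 31 and 16 zero-sum cells and 17, 19 and 1 members as too shallow. The median zero-sum cell held 2, 3 and 4 Fos molecules and the median member 16.5, 24 and 21. No class in the gate is known to lack Fos, so the part that free RNA plays in these shares was not tested.

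Of 17 EGR, NR4A and other early regulators tested, 7 rose and none fell, where 5.15% of all genes rose. The median log2 difference was 0.43. With cells thinned to 8000 UMIs and both classes redrawn from the thinned counts, 4 of 16 rose, Egr3, Klf4 and Klf6 losing their calls. By DESeq2 3 of 17 rose, and the genes no longer called had no adjusted p. Egr1, the most abundant EGR factor here, was at 293, 459 and 366 CPM in zero-sum cells and 680.5, 908 and 741 in members, without overlap. It rose by 1.10 ± 0.04 (edgeR adjusted p = 7.28e-37). Ier2, a nuclear immediate early protein, rose by 1.36 ± 0.03 (edgeR adjusted p = 3.76e-46), and Srf, serum response factor itself, by 0.96 ± 0.10 (edgeR adjusted p = 2.76e-11). Myc, the growth-promoting factor, rose by 0.43 ± 0.06 (edgeR adjusted p = 2.83e-08). Early regulators that did not pass included Nab2, a corepressor of EGR factors, at 0.02 ± 0.10 (edgeR adjusted p = 0.935), and Ier5, a regulator of heat shock factor, at -0.09 ± 0.08 (edgeR adjusted p = 0.582).

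Other early genes are known to end the response. All 9 tested genes of messenger RNA decay and growth arrest were above 0 in log2, beside 52.2% of all genes tested. Of these 9, 6 passed, where 5.15% of all genes rose. Zfp36, which encodes tristetraprolin, a protein that destroys short-lived messages, was at 13.5, 33.6 and 18.5 CPM in zero-sum cells and 49.7, 218 and 70.1 in members. It rose by 2.29 ± 0.10 (edgeR adjusted p = 2.6e-30). Btg2, an antiproliferative partner of the deadenylase complex, rose from 97.4, 175 and 138 to 488, 1129.9 and 651 CPM, by 2.45 ± 0.05 (edgeR adjusted p = 4.5e-51). Classes did not overlap for 778 of the 11111 genes tested, Zfp36 and Btg2 among them. Their relatives Btg1 and Zfp36l1 rose by 0.43 ± 0.04 and 0.43 ± 0.05 (edgeR adjusted p = 5.57e-15 and 4.03e-11). The stress sensor Gadd45g passed only with library 2: without it the log2 difference was 0.19 (edgeR adjusted p = 0.506), against 0.63.

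Among 15 genes of ERK feedback tested, 5 rose and 1 fell, where 5.15% of all genes rose and 4.18% fell. Dusp1, a phosphatase of MAP kinases made as an immediate early protein, was at 31.7, 45.4 and 30.4 CPM in zero-sum cells and 77.4, 135 and 82.2 in members. It rose by 1.46 ± 0.08 (edgeR adjusted p = 8.23e-25). Dusp5, the nuclear ERK phosphatase, rose by 1.04 ± 0.12, its nuclear relative Dusp2 by 0.84 ± 0.13 and Errfi1, an inhibitor of the EGF receptor, by 0.59 ± 0.12 (edgeR adjusted p = 1.11e-10, 1.14e-06 and 0.00014). Known readouts of FGF signalling gave mixed values. Dusp6 passed at 0.29 ± 0.07 but stood at 0.09 without library 2 (edgeR adjusted p = 0.643), and Etv4, an ETS factor induced by FGF, fell by 0.27 ± 0.06 (edgeR adjusted p = 0.000463). In thinned cells Etv4 stood at -0.17 (edgeR adjusted p = 0.211) and no gene of the list fell. By DESeq2 1 rose and 1 fell. Of the rises no longer called, only Dusp6 had an adjusted p (0.596 by DESeq2). Etv5 differed by -0.08 ± 0.09 and Spry1, an ERK pathway inhibitor, by -0.09 ± 0.11 (edgeR adjusted p = 0.668 and 0.697).

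Of 13 serum response factor and YAP targets tested, 8 rose and none fell, where 5.15% of all genes rose and 4.18% fell. The median was 0.33. With zero-sum cells paired by UMIs 5 rose, and 4 by DESeq2, which gave some of them no adjusted p. Besides Cyr61, these were led by Tagln, an actin-binding protein of contractile cells, at 1.87, 2.62 and 2.73 CPM in zero-sum cells and 6.25, 22.1 and 8.34 in members (2.23 ± 0.25; edgeR adjusted p = 1.34e-10). The abundant cytoskeletal gamma actin Actg1 rose by 0.28 ± 0.03 (edgeR adjusted p = 5.8e-14). Another YAP target, Ctgf, was at or below 0.410 CPM in every sum, and Ankrd1 was at 0 in all of them. Tagln is also on the list of mural and muscle markers, of which it alone passed among 4 tested. Acta2, the smooth muscle actin, was at 1.49, 6.14 and 1.14 CPM in members (log2 difference 0.59 ± 0.39; edgeR adjusted p = 0.407).

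The NF-kB list had 6 genes high enough to test, of which 2 rose, where 5.15% of all genes rose. Nfkbia, the inhibitor that NF-kB induces against itself, was at 48.8, 53.4 and 51.8 CPM in zero-sum cells and 71.7, 87.2 and 73.5 in members, without overlap (0.61 ± 0.08; edgeR adjusted p = 3.54e-09). Relb passed at 0.67 ± 0.19 and was lost without library 1 (0.50; edgeR adjusted p = 0.254) or library 2 (0.67; edgeR adjusted p = 0.0632). Genes outside the lists stood among the 15 largest increases too: Irak2, a kinase of Toll-like receptor signalling, rose by 1.69 ± 0.13 and Irf1, an interferon-response factor, by 1.44 ± 0.16 (edgeR adjusted p = 5.54e-17 and 2.82e-10).

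Of 11 activity genes known from neurons, 2 rose and none fell, where 5.15% of all genes rose and 4.18% fell. Plk2, a kinase of synaptic scaling and of the stress response, rose by 0.77 ± 0.08 (edgeR adjusted p = 2.26e-12). Tiparp rose by 0.37 ± 0.10 and lost the call without library 1 (0.34; edgeR adjusted p = 0.126) or library 3 (0.28; edgeR adjusted p = 0.226). Npas4, the neuronal activity factor, was found at 0.298, 0.410 and 0.379 CPM in members, which is 1 cell with a UMI in each library, and at 0 in zero-sum cells.

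Heat shock genes are often followed as a sign of tissue dissociation. Of 13 tested, 3 rose and 1 fell, where 5.15% of all genes rose and 4.18% fell. The median log2 difference was -0.024. Against all other gated cells 3 rose and 4 fell. The inducible Hspa1a was at 3.0, 32.8 and 14.8 CPM in zero-sum cells and 8.33, 20.1 and 4.55 in members, and it was lower in members of libraries 2 and 3 (-0.47 ± 0.21; edgeR adjusted p = 0.169). It passed as lower without library 1 (-0.96; edgeR adjusted p = 7.39e-05) and against all other gated cells (-0.77; edgeR adjusted p = 0.000308), while in thinned cells it stood at -0.11 (edgeR adjusted p = 0.877). Dnajb1, a cochaperone of Hsp70, rose by 0.75 ± 0.06 and the constitutive Hspa8 by 0.26 ± 0.02 (edgeR adjusted p = 1.28e-16 and 2.97e-13).

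**Figure D3:**
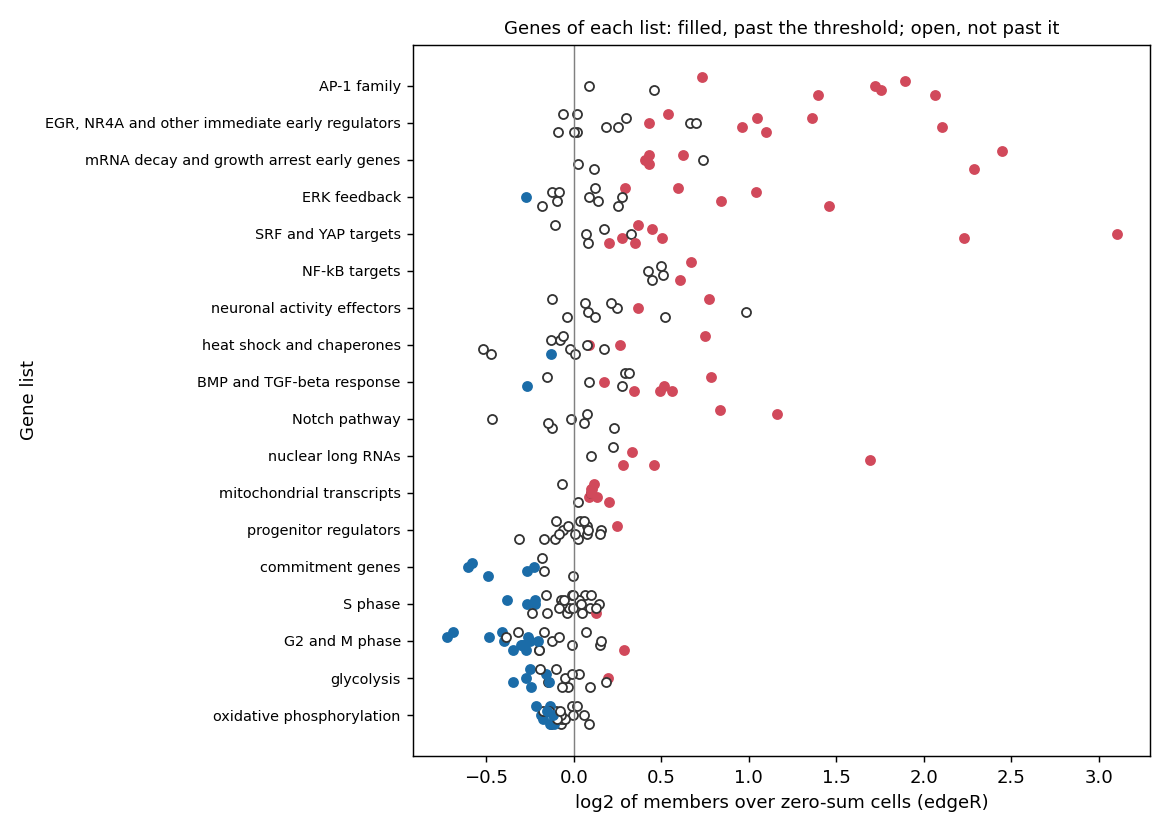
Log2 of members over zero-sum cells (edgeR) for each tested gene of 18 lists, filled where the adjusted p passed 0.05. AP-1 genes (6 of 8) and serum response factor and YAP targets (8 of 13) lie to the right, commitment genes (5 of 8) and G2 and M phase genes (13 of 25) to the left. Over all genes tested, 5.15% rose and 4.18% fell.

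Of 9 Notch pathway genes tested, 2 rose and none fell, where 5.15% of all genes rose. Hes1, a repressor induced by Notch and by other signals, was at 381, 374 and 313 CPM in zero-sum cells and 811, 949.7 and 616 in members, without overlap. It rose by 1.16 ± 0.04 (edgeR adjusted p = 5.32e-36). Its relative Hey1 rose by 0.84 ± 0.11 (edgeR adjusted p = 7.63e-09). Of the other members, the receptor Notch2 differed by 0.06 ± 0.13 (edgeR adjusted p = 0.855). The ligands Jag1 and Dll1 were below 2 CPM in every sum.

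Of 12 BMP and TGF-beta response genes tested, 6 rose and 1 fell, where 5.15% of all genes rose and 4.18% fell. By DESeq2, which gave some of them no adjusted p, 2 rose and 1 fell. Bmp4, a ligand, was at 16.7, 17.5 and 18.1 CPM in zero-sum cells and 28.9, 33.6 and 26.5 in members (0.78 ± 0.12; edgeR adjusted p = 1.34e-06). Id1, a BMP-induced inhibitor of differentiation factors, rose by 0.56 ± 0.07, and Tgfbi, a matrix protein named for its induction by TGF-beta, by 0.35 ± 0.04 (edgeR adjusted p = 2.82e-08 and 2.97e-10). The classes of Bmp4 and Id1 did not overlap. Id2, of the same family as Id1, fell by 0.27 ± 0.05 (edgeR adjusted p = 6.55e-05) and was lost without library 1 (-0.16; edgeR adjusted p = 0.0867).

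Among early commitment genes the count of falls varied with the libraries, the depth and the tool. Of 8 tested, 5 fell and none rose, where 4.18% of all genes fell and 5.15% rose. The median was -0.25, and the gate had already removed cells with Wnt4. Without library 1, in thinned cells or by DESeq2, 2 fell and none rose, at medians of -0.42, -0.32 and -0.29. Fgf8, a signal of the forming renal vesicle, was at 54.6, 67.4 and 48.0 CPM in zero-sum cells and 32.7, 41.4 and 37.9 in members, so the classes did not overlap. It fell by 0.58 ± 0.09 (edgeR adjusted p = 2.53e-06). Pax8, a paired box factor of the early nephron, fell by 0.49 ± 0.12 (edgeR adjusted p = 0.00231), but with every cell thinned to 8000 UMIs its adjusted p was 0.0751 by edgeR (log2 difference -0.44). Ccnd1, cyclin D1, fell by 0.23 ± 0.06 (edgeR adjusted p = 0.00404) and was lost without library 1 (-0.19; edgeR adjusted p = 0.107). Among Wnt targets, 1 of 7 tested passed, which was Ccnd1 again, and Axin2, the feedback target of beta-catenin, differed by 0.18 ± 0.16 (edgeR adjusted p = 0.593).

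Mitotic genes were another group that fell, and here the comparison cells mattered. Of 25 G2 and M phase genes, all tested, 13 fell and 1 rose, where 4.18% of all genes fell and 5.15% rose. The median was -0.26. Cenpa, the centromere's histone, was at 147, 179 and 145 CPM in zero-sum cells and 92.3, 97.1 and 88.7 in members, without overlap. It fell by 0.72 ± 0.06 (edgeR adjusted p = 5.57e-16), and Ccnb2, a mitotic cyclin, by 0.69 ± 0.08 (edgeR adjusted p = 1.49e-10). Knstrn, a spindle protein outside the list, fell by 0.71 ± 0.09 (edgeR adjusted p = 9.74e-09). Top2a, which untangles DNA before division, rose by 0.29 ± 0.05 (edgeR adjusted p = 7.67e-06).

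Members had fewer UMIs per cell than zero-sum cells in each library, as given above. With zero-sum cells paired to members by total UMIs, 2 of the 25 genes fell and 4 rose, and the median was -0.0058. With every cell thinned to 8000 UMIs instead, 16 fell and none rose, and the median was -0.44. Top2a stood at 0.08 (edgeR adjusted p = 0.686). Both classes were redrawn from the thinned counts, so cells with an original sum above 0 could enter the zero-sum class. Under the pairing, Cenpa (-0.60; edgeR adjusted p = 4.79e-08) and Ccnb2 (-0.56; edgeR adjusted p = 2.92e-05) were those that fell. Against all other gated cells, 22 fell and none rose, and Top2a turned to -0.16 (edgeR adjusted p = 0.00982). Within cells at or below their library's median share of these genes, an alternative chosen after seeing the data, none of 18 tested passed. Those cells were kept by the same genes that were tested, so the loss of calls decides nothing. Whether depth or cell cycle stage lies behind these differences was not tested.

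**Figure D4:**
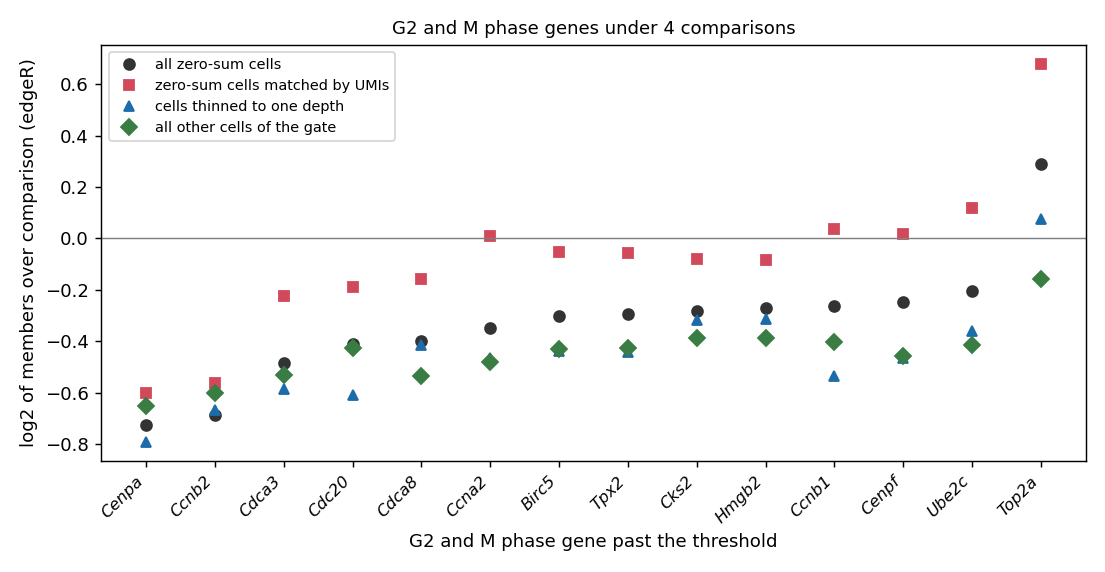
Log2 of members over the comparison cells (edgeR) for the 14 G2 and M phase genes past the threshold, under 4 choices of cells. Cenpa and Ccnb2 stay below 0 throughout, from -0.79 to -0.56, whereas Top2a runs from -0.16 to 0.68.

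Of 25 S phase genes, 4 fell and 1 rose, where 4.18% of all genes fell and 5.15% rose. The median was -0.028, and these counts too turned with the cells compared. With zero-sum cells paired by UMIs 6 rose and none fell (median 0.14), with the top 20% as members 8 rose and 2 fell (median 0.07), and against all other gated cells none rose and 10 fell (median -0.16). Fen1, the flap endonuclease of replication, fell by 0.38 ± 0.07 (edgeR adjusted p = 2.27e-05) but stood at -0.16 under the pairing (edgeR adjusted p = 0.313). Pcna, the replication clamp, differed by -0.03 ± 0.05 (edgeR adjusted p = 0.806).

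Of 17 glycolysis genes tested, 6 fell and 1 rose, where 4.18% of all genes fell and 5.15% rose. Tpi1, triose phosphate isomerase, was at 378, 548 and 456 CPM in zero-sum cells and 305, 411 and 349 in members, lower in each library although the libraries overlapped between classes. It fell by 0.35 ± 0.04 (edgeR adjusted p = 9.08e-11), and Ldha, lactate dehydrogenase, by 0.27 ± 0.03 (edgeR adjusted p = 1.54e-09). Eno1, enolase, fell by 0.24 ± 0.03 and Pgam1, phosphoglycerate mutase, by 0.25 ± 0.03 (edgeR adjusted p = 9.74e-09 and 5.98e-08).

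RNAs that stay in the nucleus were higher. Of 6 tested, 4 rose and none fell, where 5.15% of all genes rose and 4.18% fell. Malat1, the most abundant of them, was at 7078, 6269 and 6646 CPM in zero-sum cells and 8662, 9234 and 9099 in members, without overlap (0.46 ± 0.03; edgeR adjusted p = 4.66e-22). Neat1, the scaffold of paraspeckles, rose by 1.69 ± 0.11 (edgeR adjusted p = 1.77e-19). Kcnq1ot1 and Xist rose by 0.33 ± 0.04 and 0.28 ± 0.04 (edgeR adjusted p = 2.25e-08 and 8.74e-07). Both overlap a gene on the other strand, and no source here states whether reads were counted by strand. Xist did not pass by DESeq2 (0.29; DESeq2 adjusted p = 0.135), and it differed between libraries, at 647, 154 and 534 CPM in zero-sum cells.

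The largest falls among genes above 10 CPM were of low level. Hmox1, heme oxygenase, led them at -1.43 ± 0.25 (edgeR adjusted p = 1.65e-05), from 5.94, 7.31 and 20.1 CPM in zero-sum cells to 2.08, 5.32 and 4.93 in members. It lost the call without library 3 (-0.91; edgeR adjusted p = 0.094) and without cells holding markers of other types (-0.55; edgeR adjusted p = 0.259), and the immune markers given above were likewise higher in zero-sum cells of library 3. The falls of Pcp4, a calmodulin regulator (-0.79 ± 0.13), Txnip, the thioredoxin inhibitor (-0.71 ± 0.13), and Fam118b (-0.75 ± 0.15) passed whichever library was left out (edgeR adjusted p = 9.22e-06, 8.21e-05 and 0.000129 with all 3). Epcam, the epithelial adhesion molecule, fell by 0.82 ± 0.21 (edgeR adjusted p = 0.00567) and lost the call without library 1 (-0.81; edgeR adjusted p = 0.0541) and in thinned cells (-0.25; edgeR adjusted p = 0.72).

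For several of these genes the levels were graded over the whole gate. Gated cells with a sum above 0 and below the cut were split at their median score into lower and upper classes. The mean CPM of Fos over libraries was 401 in zero-sum cells, 665 in the lower class, 1054 in the upper class and 1648 in members. For Cyr61 the means were 44.2, 97.5, 200.2 and 382 CPM, and for Hes1 they were 356, 451, 594 and 792. These 3 genes, with Egr1, Btg2, Jun, Junb, Ier2, Timp3 and Malat1, stepped up from class to class in 3 of 3 libraries. Cited1 held level, at 181, 178, 170.0 and 182 CPM. Ccnb2 was at 89.2, 89.1, 70.02 and 53.5 CPM, so it was lower from the upper class on.

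**Figure D5:**
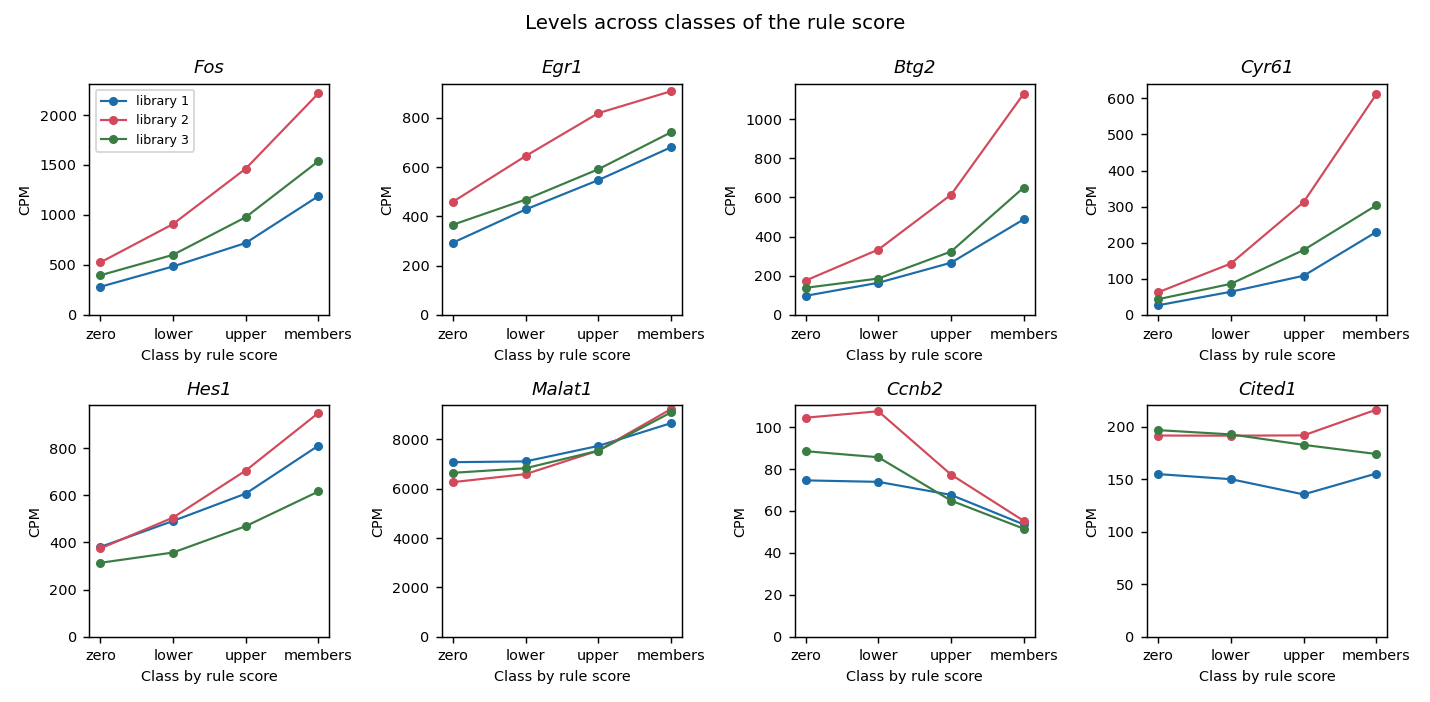
CPM in zero-sum cells, the lower and upper classes of cells below the cut, and members, for 8 genes and each library. Fos, Egr1, Btg2, Cyr61, Hes1 and Malat1 climb in every library, Ccnb2 falls in members and Cited1 stays near 180 CPM on average.

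By the within-library correlation with the rule score over gated cells (mean of 3 libraries, cells of a library sharing its depth range), the most alike genes were Fos (0.54), Btg2 (0.52), Junb (0.48), Ier2 (0.47) and Egr1 (0.41). Cyr61 (0.36), Jun (0.36), Zfp36 (0.33), Hes1 (0.32) and Jund (0.30) followed.

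The split of members by Egr4 is a description, since Egr4 chose them. Egr4 was found in 110, 196 and 115 members and missing from 108, 22 and 54. Fos was at 1152, 2191 and 1501 CPM in members with Egr4 and 1234, 2508 and 1628 in members without. Fos was no lower without Egr4 in any library, but members without Egr4 could pass the cut only through the other 4 rule genes. Fosb was at 81.7, 150 and 78.0 CPM with Egr4 and 148, 346 and 125 without. The split therefore cannot show what Fos owes to Egr4. Cyr61 was at 253, 598 and 293 CPM with Egr4 and 201, 755 and 330 without, lower in library 1 and higher in the other two.

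The 15 largest increases were checked for the same letters as the rule genes. RefSeq windows were found for 11 of them, some with several windows. Counted by window, 6 of 14 held TGACG and 1, of Zfp36, held a CArG box, beside 17.8% and 1.47% of all windows.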

How the data were processed

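UMI counts per gene and cell were deposited by the authors, who list Cell Ranger 1.3.1 and the build mm10 in the submitters' processing notes. For each class of a library the counts were added up and tested in edgeR 4.0.16 under R 4.3.3 (TMM, filterByExpr, quasi-likelihood test, library as a block, Benjamini-Hochberg over all genes tested, threshold 0.05, two-sided). The classes of a library share its tube, so the block follows from the design. The SE is the absolute log2 difference over the square root of F. The rule genes, Six2 and Wnt4 were left out of the genes tested. Members and gene lists were chosen with earlier results of these data known. Named were the rule genes, the 15 largest increases and decreases past the threshold with at least 10 CPM and one direction in 3 of 3 libraries, list members by adjusted p, and the 10 genes most like the score. Other genes were named from the lists after their values were seen. The fit was tested on simulated data. Alternatives changed scaling, tool (DESeq2 1.42.0), filters, block, libraries, cut, comparison cells, depth, doublets and other cell types. In the fits on thinned cells both classes were redrawn from the thinned counts.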

Additional observations from a re-analysis of the deposited data

How the results depend on the processing

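The 15 largest increases passed under every alternative tried with edgeR and the block. Calls depended on the library as a replicate block: without it 0 genes rose and 0 fell (edgeR; 1071 genes at an unadjusted p under 0.05, beside 98 and 103 by DESeq2 with the block), and the rule genes chosen by the other 4 kept their log2 differences but not their calls. Those values without the block were 1.95 for Fosb, 1.78 for Egr2, 3.61 for Egr4, 3.16 for Arc and 2.68 for Nr4a1 (edgeR adjusted p = 0.174, 0.269, 0.217, 0.141 and 0.0894). The numbers of genes that rose and fell were 98 and 103 by DESeq2, 329 and 266 with members as the top 5%, 264 and 180 with zero-sum cells paired by UMIs, 269 and 198 with cells thinned, and 215 and 104 in cells with few G2 and M phase UMIs (chosen after seeing the data), where fewer cells entered. Leaving out a library gave 363 to 393 that rose and 294 to 334 that fell, fewest without library 3. Genes that rose were 44.5% of calls with no filter on low counts (472 against 589), beside 55.2%, and 50.0% with RLE scaling. Reversed values were few, and their cause was not tested. Pairing by UMIs turned Ccna2 (0.0094), Ccnb1 (0.035), Cenpf (0.015), Ube2c (0.12) and Tyms (0.24). Cells with few G2 and M phase UMIs, kept by the sum of that list, turned Birc5 (0.19), Cdc20 (0.16), Cdca8 (0.21) and Ube2c (0.14). All other gated cells as comparison turned Rrm2 (-0.24) and Top2a (-0.16), and the top 20% turned Mki67 (0.19) and Tyms (0.14). Genes under about 1 CPM, such as Atf3 and Npas4, lay too near single molecules to test.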

Other observations

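Cells outside the gate also passed the members' cut of their library. Among cells with both Six2 and Wnt4, 8.02% (95% exact Clopper-Pearson interval 4.34% to 13.3%, 162 cells), 8.0% (2.99% to 16.6%, 75 cells) and 3.19% (0.663% to 9.04%, 94 cells) passed in libraries 1, 2 and 3. Among cells with neither gene the shares were 10.8% (8.49% to 13.5%), 9.83% (7.31% to 12.9%) and 7.82% (5.07% to 11.4%). The intervals cover counting error only, and median depth differed, at 20823, 14992 and 20521.5 UMIs in the first class and 13852, 10807.5 and 13678 in the other.

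Some stress and mitochondrial genes also differed in members. Over all genes tested, 5.15% rose and 4.18% fell. Of 12 genes of the unfolded protein and integrated stress responses tested, 3 rose and 2 fell. The counts were 1 and 2 without library 2, 3 and 1 without library 3, and 1 and 0 by DESeq2. Atf4, the shared effector of these responses, rose by 0.26 ± 0.05 and Ddit4, an inhibitor of mTOR, fell by 0.60 ± 0.10 (edgeR adjusted p = 5.4e-05 and 1.66e-05), although Ddit4 lost its call in thinned cells (-0.36; edgeR adjusted p = 0.0977). Of 11 p53 targets, 1 rose and 2 fell, none rose with any 1 library left out, and none was called by DESeq2. Cdkn1a, the p21 inhibitor, differed by 0.19 ± 0.22 (edgeR adjusted p = 0.691). Messages of the mitochondrial genome rose in 7 of 10 cases, led by mt-Co1 (0.20 ± 0.02; edgeR adjusted p = 3.96e-09), while 8 of 24 nuclear genes of oxidative phosphorylation fell and none rose. Without library 3 the counts were 4 of 10 and 4 of 24, with zero-sum cells paired by UMIs 3 and 3, and in cells with few G2 and M phase UMIs, chosen after seeing the data, 2 and 0. Ndufa4, a respiratory chain subunit, fell by 0.19 ± 0.04 (edgeR adjusted p = 0.000129). The mitochondrial share of UMIs given for both classes moved the same way as mt-Co1, and its part in these values was not tested.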
